A study of Homo sapiens with 40 samples.

Results

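The genes described here are 10 that write, keep, remove or read methylation of cytosine in DNA: DNMT1, UHRF1, DNMT3A, DNMT3B, TET1, TET2, TET3, MBD2, MBD4 and TDG. They were chosen by name, with earlier results of these data known. The data were every peak of acetylated histone H3 lysine 27 (H3K27ac) and of the insulator protein CTCF at those genes. A peak belonged to a gene when it lay within 2 kb of a start site of one of its protein-coding transcripts in GENCODE 44 (promoter), otherwise when it overlapped the gene (gene body), and otherwise when that start site was the nearest of any protein-coding gene and within 100 kb (nearest). This gave 37 of 51489 H3K27ac peaks and 30 of 51457 CTCF peaks, and each of the 10 genes had at least 1 H3K27ac promoter peak. The study compared 2 states of EndoC-βH3, a human beta-like cell line derived from fetal pancreas that is kept dividing by telomerase (hTERT) and SV40 large T antigen and carries a tamoxifen-inducible Cre recombinase (CreER). Senescent cells had been treated with 4-hydroxytamoxifen (4-OHT) for 3 weeks, which lets Cre cut out both transgenes, and non-senescent control cells kept them. Removal of large T antigen and hTERT and the drug itself thus went together and cannot be told apart here, and both states are of 1 cell line. H3K27ac and CTCF were each measured by ChIP-seq in 3 libraries per state, and H3K4me1, which marks enhancers, and the retinoblastoma protein Rb in 2 libraries per state.

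DNA methylation is copied at each cell division, when UHRF1 binds the half-methylated DNA behind the replication fork and DNMT1 adds the methyl group to the new strand. DNMT3A and DNMT3B place methyl groups on unmethylated DNA, the TET enzymes oxidize them, and TDG and MBD4 are glycosylases that cut damaged or oxidized bases out so that repair can restore cytosine. Large T antigen binds and disables both Rb and the transcription factor p53, so its removal frees both. Free Rb restrains the E2F factors that drive genes of DNA replication, and free p53 activates its own targets, CDKN1A among them. H3K27ac marks active promoters and enhancers, so a lower level at a start site is a lower level of that mark and not a measurement of transcript or of DNA methylation.

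The values are those of the authors' deposited DESeq2 tables, which hold for each peak the mean normalized read count over all 6 libraries of the mark, the log2 fold change of senescent over non-senescent cells and its standard error (SE, given after ±), with no value for a single library. Gained or lost means a change above 1.5-fold with an adjusted p under 0.05 for H3K27ac or under 0.2 for CTCF. Mean counts summed to 19239499 over the H3K27ac peaks and 6136424 over the CTCF peaks, and the median SE was 0.19 and 0.29. In the CTCF table, 399 peaks with a mean count of at least 50 had an SE above 1, and none of them lay at these genes. Of the cell type markers, all 16 beta-cell genes examined had an H3K27ac promoter peak (1 gained, 1 lost), against 4 of 6 genes of other islet cells, 1 of 4 acinar genes, 1 of 3 duct genes and none of the 7 genes of mesenchyme, endothelium and leukocytes. Of the islet, acinar and duct genes with a peak, 3 of the 4 islet ones and the duct gene KRT19 (−0.74) were lost, and their part in the results at the methylation genes was not tested. The direction of the tables was checked at MKI67, a proliferation gene, whose promoter fell by 2.29 on the log2 scale, and at CDKN1A, the cell-cycle inhibitor p21, whose promoter rose by 2.50. Peaks on chromosome 19, which holds DNMT1 and UHRF1, had a median log2 fold change of 0.15 for H3K27ac and −0.17 for CTCF, and the medians of the other chromosomes concerned lay between −0.016 and 0.061 for H3K27ac and between −0.061 and 0.084 for CTCF.

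H3K27ac fell at the promoters of DNMT1, UHRF1 and TET1 and at distal peaks of DNMT3A, TET1, UHRF1 and DNMT3B, and it rose at 3 intronic peaks of TET2 and TET3. Of the 37 peaks, 3 were gained and 10 lost, 35.1% in all, against 22.6% of all H3K27ac peaks (9.47% gained and 13.1% lost). The 13 promoter peaks held 3 losses and no gain, where 14.3% of all 14007 promoter peaks were called (4.53% gained and 9.81% lost). Outside promoters, 10 of 24 peaks were called, 3 gained and 7 lost, against a background of 25.7% (11.3% gained and 14.4% lost). The median log2 fold change was −0.19 over the 37 peaks and 0.0075 over all peaks, and −0.025 over the 13 promoter peaks against 0.033 over all promoter peaks. At an unadjusted p under 0.05, 5 of the 37 were higher and 13 lower, 13.5% and 35.1%, against 22.6% and 23.8% of all peaks. Losses were found at 5 genes and gains at 2. The share of all genes with a loss or a gain is not given here, so these counts are not read as particular to the 10 genes.

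**Figure D1:**
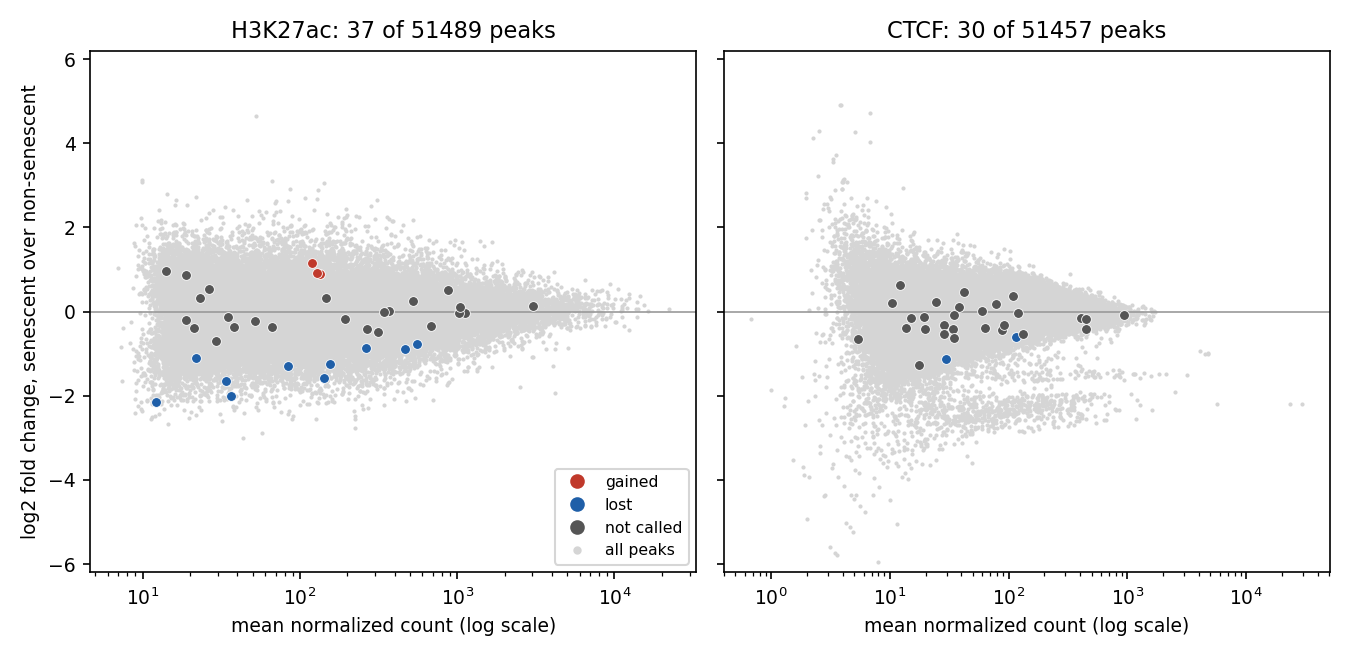
Log2 fold change of senescent over non-senescent cells against the mean normalized count (log axis) for H3K27ac (left) and CTCF (right), with all peaks in grey and the peaks of the 10 genes as larger points coloured by call. The 3 gained H3K27ac peaks have mean counts of 120.2 to 133.9, and 4 of the 10 lost ones have mean counts under 50.

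Both genes of maintenance methylation lost H3K27ac at their canonical start. UHRF1, the reader of half-methylated DNA that recruits DNMT1, lies at chr19:4903080-4962154 (hg38, plus strand). Its promoter peak, chr19:4909184-4911013, covers the first 2 exons of the canonical transcript and lies within 2 kb of 6 annotated start sites. It had a mean count of 142.4 and a log2 fold change of −1.57 ± 0.19 (95% interval −1.94 to −1.20, adjusted p = 2.7e-15), 2.97-fold lower in senescent cells. Of all promoter peaks, 1.03% had a lower value. A second UHRF1 peak in intron 2, chr19:4922351-4923315 at 13.3 kb from the canonical start, fell by 2.00 ± 0.40 on the log2 scale (4.00-fold, adjusted p = 5.9e-06) at a mean count of only 36.7. Both H3K27ac peaks of UHRF1 were thus lost. The intron 2 peak overlapped no listed enhancer of either state, and the enhancer lists hold only regions outside promoters.

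DNMT1, the maintenance methyltransferase, occupies chr19:10133342-10231286 on the minus strand. The peak over exon 1 of the canonical transcript, chr19:10192942-10195958, lies within 2 kb of 4 start sites and had a mean count of 466.3. It fell by 0.90 ± 0.10 (95% interval −1.10 to −0.69, adjusted p = 2.4e-16), a 1.86-fold loss, and 5.60% of all promoter peaks lay lower. Transcripts of DNMT1 that begin farther upstream start in a second peak, chr19:10230379-10232414, which they share with the promoter of the neighbouring receptor gene S1PR2, so its reads cannot be given to either gene. That peak had a log2 fold change of −0.48 ± 0.12 (adjusted p = 0.00028), under the fold threshold, and its interval of −0.72 to −0.25 overlapped that of the canonical promoter.

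The sequences ahead of these start sites are shown because Rb acts through E2F factors, and the letters of the E2F motif could be looked up in them. The E2F words searched on both strands were TTCCCGC or TTCGCGC and their variants TTGCCGC or TTGGCGC. Among 35116 promoter windows of RefSeq (GRCh38.p14, 250 bases before to 50 after a start), 13.0% held at least 1 of them, and 16.2% of the 21574 windows of protein-coding genes. All 10 genes matched, with 21 windows, several of which overlap. Of the 21, 5 held a word: 2 of UHRF1 and 1 each of DNMT1, TET3 and TDG. The only DNMT3B window, chr20:32779602-32779901, lies at an internal start and under no H3K27ac peak. The DNMT3B promoter peak described below was thus not searched for any of these words. UHRF1 had 3 words in all, 1 of them past the stretch printed, and the word of DNMT1 lay across the start site itself. The H3K27ac promoter peaks over the windows of TET3 and TDG were not called. Other cell-cycle promoter words were searched in the same way: CCAAT was in 8 of the 21 windows and in 34.8% of those of protein-coding genes, and the CHR words TTTGAA or TTCGAA in 3 of the 21 and 13.7%. Each stretch runs 5′ to 3′ on the strand of its gene and is kept to bases outside annotated exons, and capitals mark an E2F word. They are UHRF1 at chr19:4909251-4909429 and chr19:4909894-4910143 (plus strand) and DNMT1 at chr19:10195136-10195203 (minus strand).
UHRF1 first start: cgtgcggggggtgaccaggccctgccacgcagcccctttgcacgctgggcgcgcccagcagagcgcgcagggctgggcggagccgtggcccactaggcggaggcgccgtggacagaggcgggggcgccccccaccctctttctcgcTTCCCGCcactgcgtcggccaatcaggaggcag
UHRF1 second start: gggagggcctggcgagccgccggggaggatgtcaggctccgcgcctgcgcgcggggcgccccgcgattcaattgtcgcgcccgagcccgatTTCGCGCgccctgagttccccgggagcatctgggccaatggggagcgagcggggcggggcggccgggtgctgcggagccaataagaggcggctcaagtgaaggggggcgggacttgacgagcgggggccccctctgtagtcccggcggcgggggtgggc
DNMT1: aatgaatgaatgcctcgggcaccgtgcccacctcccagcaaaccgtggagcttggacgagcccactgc
These are matches of letters in a window, and no binding of E2F was measured. No region of the Rb list, which holds 2435 places where Rb was found in senescent over non-senescent cells, lay at UHRF1 or DNMT1. The share of all genes with such a region is not given here, so this absence is not read as a result on Rb at these genes.

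**Figure D2:**
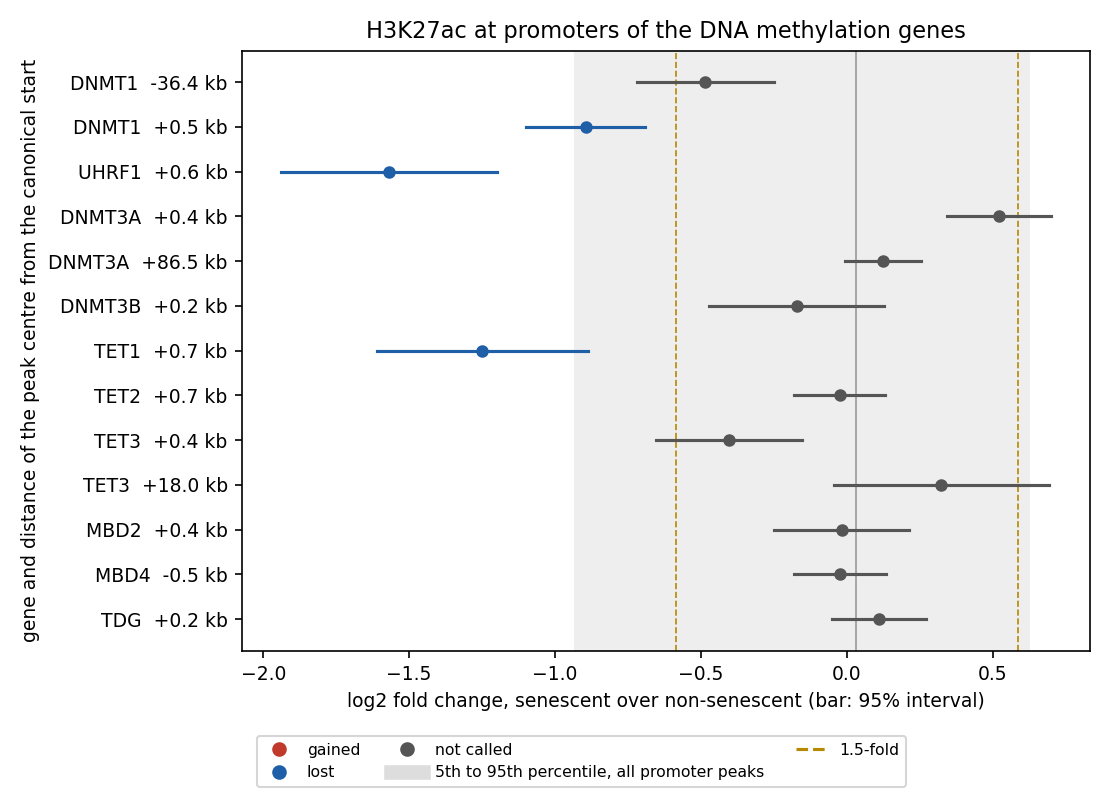
Log2 fold change of the 13 H3K27ac promoter peaks, each named by its gene and the distance of its centre from the canonical start, with 95% intervals as bars, the 5th to 95th percentile of all promoter peaks as a grey band, their median as a grey line and dashed lines at 1.5-fold. UHRF1 and TET1 lie to the left of the band, DNMT1 near its edge, and TET2, MBD2, MBD4 and TDG within 0.11 of 0.

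No H3K27ac promoter peak of the de novo methyltransferases was called, and 4 of their distal peaks were lost. DNMT3A lies at chr2:25227855-25342590 (minus strand) and has 2 groups of start sites, that of the long protein at the gene's 5′ end and an internal one for a shorter protein that lacks the first part. The 5′ promoter peak, chr2:25339542-25343450 over exon 1, had a mean count of 880.4 and stood at 0.52 ± 0.09 (95% interval 0.34 to 0.70, adjusted p = 1.1e-07), a 1.44-fold difference under the fold threshold. Its GC content was 73.6%, and after the trend of fold change with GC over all peaks was removed it stood at 0.86 and passed as gained. The internal start sites lie in a broad peak of 10142 bp, chr2:25250362-25260503 in intron 6 of the canonical transcript, with a mean count of 3026.7. Its log2 fold change was 0.12 ± 0.07 (95% interval −0.0057 to 0.26, adjusted p = 0.13). Neither promoter of DNMT3A was called, and both intervals exclude a 1.5-fold fall.

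Upstream of DNMT3A, H3K27ac was lower. Of 5 H3K27ac peaks that had DNMT3A as the nearest start site, 3 were lost. The broad one, chr2:25399709-25403768 at 59.8 kb upstream, had a mean count of 555.9 and fell by 0.78 ± 0.09 (1.71-fold, adjusted p = 3.0e-15). It overlapped a listed enhancer in both states. The peak chr2:25418239-25419836, 77.1 kb upstream, fell by 1.30 ± 0.23 (2.46-fold, adjusted p = 2.9e-07) at a mean count of 84.3. The third, chr2:25377007-25377506 at 35.3 kb upstream, fell by 1.09 ± 0.44 (adjusted p = 0.033) at a mean count of only 21.9. The 2 farthest peaks, with mean counts of 29.2 and 18.8, stood at −0.69 and −0.19 and were not called. These 5 peaks were tied to DNMT3A by distance alone, and the next nearest gene was POMC or DTNB. Inside the gene, peaks in intron 1 (0.86 ± 0.46, mean count 18.9) and intron 2 (−0.13 ± 0.35, mean count 34.7) were not called.

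DNMT3B, at chr20:32762385-32809359 (plus strand), had a promoter peak over exon 1, chr20:32761669-32763513, with a mean count of 193.0. Its log2 fold change of −0.17 ± 0.15 (95% interval −0.47 to 0.13, adjusted p = 0.39) was not called, and it turned to 0.16 after the GC trend was removed. A 500-bp peak in intron 1, chr20:32775245-32775744, was lost with −2.15 ± 0.71 (adjusted p = 0.0088). Its mean count was only 12.1, and its interval ran from −3.54 to −0.75.

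Among the TET genes, which encode the oxidases that start demethylation, TET1 lost H3K27ac and TET2 and TET3 gained it at distal peaks. TET1 lies at chr10:68560337-68694487 (plus strand). Its promoter peak, chr10:68559988-68562015 over exon 1, had a mean count of 156.0 and fell by 1.25 ± 0.18 (95% interval −1.61 to −0.89, adjusted p = 1.8e-10), 2.38-fold lower, and 2.36% of all promoter peaks lay lower. The neighbouring peak 3.5 kb upstream, chr10:68555390-68558218, which overlaps an enhancer listed in both states, fell by 0.88 ± 0.13 (1.84-fold, adjusted p = 2.8e-10) at a mean count of 261.6. A small peak in intron 3, chr10:68602928-68603568 with a mean count of 33.9, fell by 1.65 ± 0.38 (3.14-fold, adjusted p = 9.7e-05).

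The remaining 4 peaks of TET1 were not called. RefSeq lists 2 further TET1 starts, at chr10:68600268 and chr10:68600474, which are not among the protein-coding starts of GENCODE, so the peak over them counted as gene body. That peak, chr10:68599375-68602912 over exon 3, had a mean count of 525.8 and a log2 fold change of 0.25 ± 0.11 (95% interval 0.039 to 0.46, adjusted p = 0.050). Its interval did not meet that of the promoter of the full-length transcript, although the difference between the 2 peaks of the same libraries was not tested. The lost intron 3 peak begins 15 bp past its end. The peak in intron 2, chr10:68594387-68598680 with 685.0 mean counts, stood at −0.33 ± 0.10 (adjusted p = 0.0052), under the fold threshold, and both overlapped enhancers listed in both states. The other 2, over exon 2 (−0.37 ± 0.25) and farther into intron 3 (−0.40 ± 0.44), had mean counts of 66.7 and 21.2. The full-length start of TET1 and the first of the internal ones are shown for comparison with UHRF1. None of the 3 TET1 windows held an E2F word, and they held 10, 6 and 11 CpG where the first UHRF1 window held 36. The median promoter window of protein-coding genes held 21. They are chr10:68560087-68560336 and chr10:68600018-68600267 on the plus strand, with nothing to mark in capitals.
TET1 full-length start: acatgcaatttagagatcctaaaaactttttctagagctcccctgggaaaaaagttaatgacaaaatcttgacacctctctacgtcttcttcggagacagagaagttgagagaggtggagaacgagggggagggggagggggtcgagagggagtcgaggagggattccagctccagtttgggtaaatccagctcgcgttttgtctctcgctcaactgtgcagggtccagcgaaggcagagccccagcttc
TET1 internal start: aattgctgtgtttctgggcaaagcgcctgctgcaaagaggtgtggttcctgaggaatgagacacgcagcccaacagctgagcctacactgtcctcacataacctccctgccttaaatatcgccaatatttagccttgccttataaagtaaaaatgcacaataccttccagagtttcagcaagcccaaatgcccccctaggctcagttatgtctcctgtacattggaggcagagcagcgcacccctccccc

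TET2, at chr4:105145875-105279816 (plus strand), had a promoter that was not called. The peak chr4:105145806-105149394 over exon 1 lies within 2 kb of 5 start sites, had a mean count of 1123.7 and a log2 fold change of −0.025 ± 0.08 (95% interval −0.18 to 0.13, inside the 1.5-fold limits). Intron 2 of TET2 held both of its gains. The peak chr4:105196801-105198592, 50.8 kb into the gene, rose by 0.89 ± 0.18 (1.85-fold, adjusted p = 4.7e-06) at a mean count of 133.9. The peak chr4:105214799-105216743, at 68.9 kb, rose by 1.14 ± 0.20 (2.21-fold, adjusted p = 1.8e-07) at a mean count of 120.2. Both coincide with enhancers listed in senescent cells and not in non-senescent cells. The lists were drawn from H3K27ac together with H3K4me1, so this listing is not independent of the gains. The 3 peaks of intron 1 had mean counts of 23.2 to 51.4 and log2 fold changes of −0.36, −0.21 and 0.33, none called.

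TET3 lies at chr2:73984910-74108176 (plus strand) and has 2 start sites, each in its own peak. The 5′ peak, chr2:73984248-73986291 over exons 1 and 2, stood at −0.40 ± 0.13 (mean count 268.9, adjusted p = 0.0057) and the second, chr2:74002068-74003708 over exon 3, at 0.32 ± 0.19 (mean count 146.6, adjusted p = 0.16). Neither passed the fold threshold, and their intervals, −0.65 to −0.15 and −0.045 to 0.69, did not overlap. The first peak is 73.7% GC and stood at −0.062 once the GC trend was removed. A peak in intron 10, chr2:74094895-74096932 at 111.0 kb from the canonical start, was gained with 0.91 ± 0.18 (1.88-fold, adjusted p = 5.6e-06, mean count 128.0). It too is listed as an enhancer in senescent cells alone. The peak in intron 3 (0.54 ± 0.39, mean count 26.3) was not called.

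**Figure D3:**
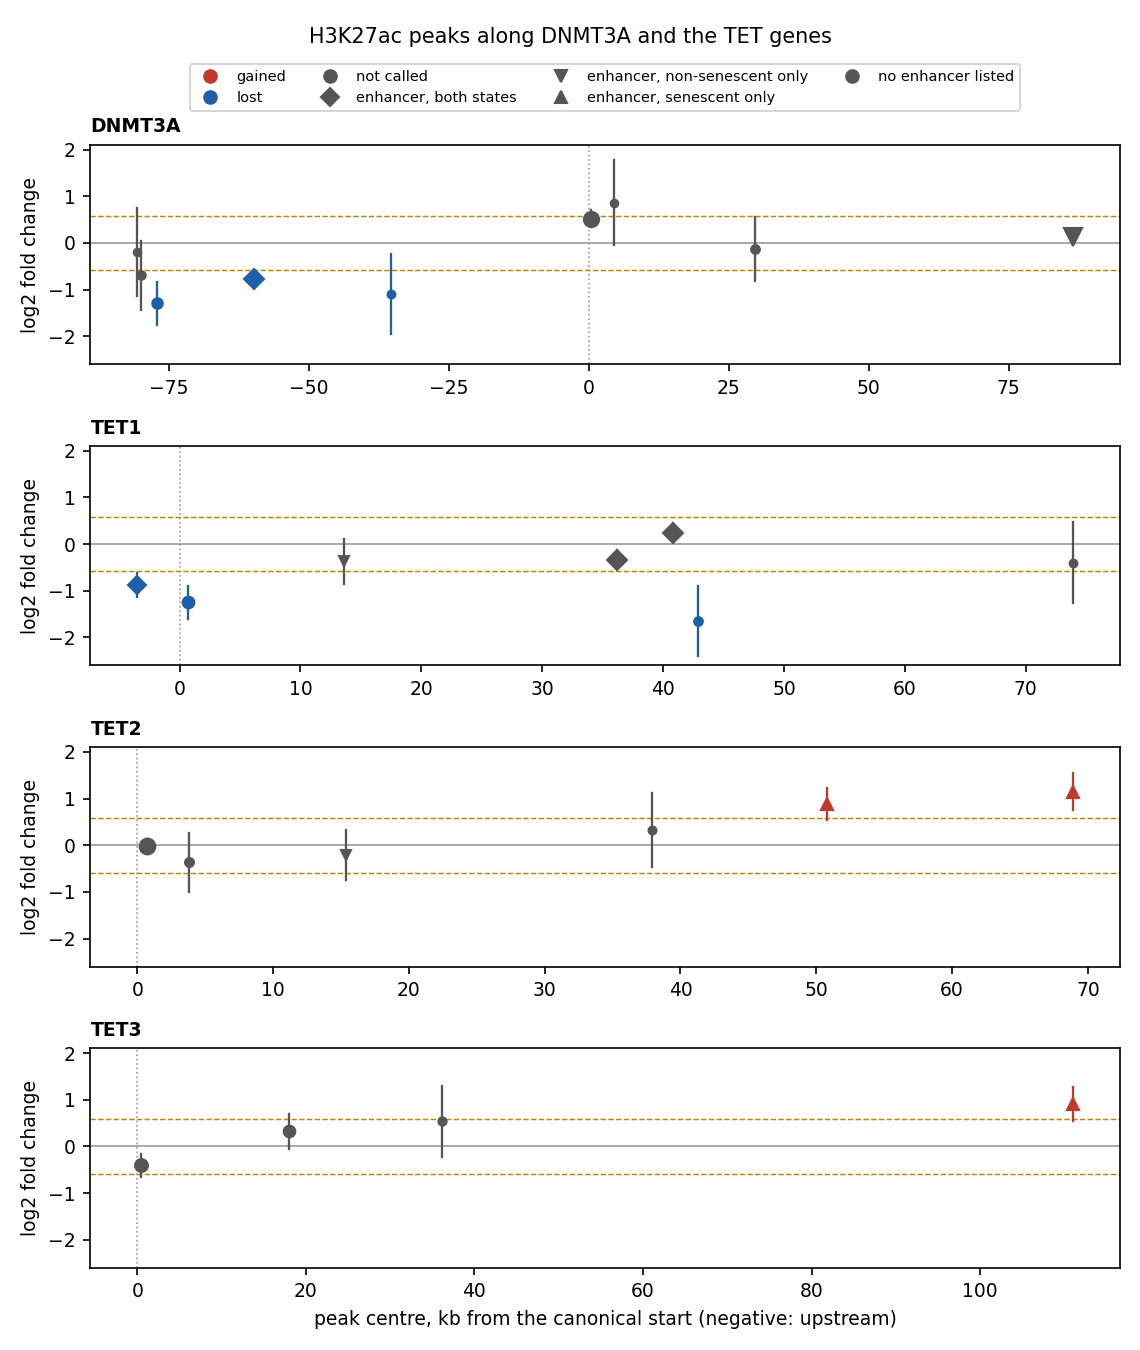
Log2 fold change of each H3K27ac peak of DNMT3A, TET1, TET2 and TET3 against the distance of its centre from the canonical start (kb, negative upstream), with 95% intervals, dashed lines at 1.5-fold, point size growing with mean count and shape giving the enhancer lists. The lost peaks of DNMT3A lie 35.3 to 77.1 kb upstream, and the gained peaks of TET2 and TET3 lie 50.8 to 111.0 kb into those genes.

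The 3 gained peaks are shown by their central 300 bases because they are intronic and carry no annotated exon. Words of 2 factors of beta cells were searched on both strands, the MAF half-site TGCTGA and the FOXO word GTAAACA, which 21.8% and 5.99% of the central 300 bases of all 51489 H3K27ac peaks hold. Capitals mark such a word. The windows are chr4:105197547-105197846, chr4:105215621-105215920 and chr2:74095764-74096063 (hg38, plus strand).
TET2 at 50.8 kb: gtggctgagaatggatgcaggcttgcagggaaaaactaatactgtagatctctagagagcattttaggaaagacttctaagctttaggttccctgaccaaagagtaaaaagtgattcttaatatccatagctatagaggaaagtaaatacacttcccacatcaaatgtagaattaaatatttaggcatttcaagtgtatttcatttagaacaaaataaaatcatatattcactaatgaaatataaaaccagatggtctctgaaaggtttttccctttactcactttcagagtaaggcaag
TET2 at 68.9 kb: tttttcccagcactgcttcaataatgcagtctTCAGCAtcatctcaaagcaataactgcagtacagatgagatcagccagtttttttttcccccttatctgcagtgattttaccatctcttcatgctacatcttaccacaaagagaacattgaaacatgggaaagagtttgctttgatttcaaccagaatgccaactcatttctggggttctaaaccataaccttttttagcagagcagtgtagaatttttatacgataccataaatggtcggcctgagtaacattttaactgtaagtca
TET3 at 111.0 kb: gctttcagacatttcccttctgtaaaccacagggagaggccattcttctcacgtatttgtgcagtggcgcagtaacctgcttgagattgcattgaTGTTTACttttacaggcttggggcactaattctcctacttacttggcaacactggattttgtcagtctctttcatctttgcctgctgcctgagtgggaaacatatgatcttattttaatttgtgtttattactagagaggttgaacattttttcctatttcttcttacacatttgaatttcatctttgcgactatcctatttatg
The second TET2 window held 1 MAF half-site and the TET3 window 1 FOXO word, and the first TET2 window neither. All 3 are AT-rich, with 33.7%, 38.0% and 39.0% GC, where the median H3K27ac peak has 45.2% over its whole length.

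No peak of MBD2, MBD4 or TDG was called. MBD2, which binds methylated DNA and recruits repressors, lies at chr18:54151606-54224669 (minus strand), and its promoter peak, chr18:54222976-54225506 over exon 1, stood at −0.018 ± 0.12 (mean count 340.7, 95% interval −0.25 to 0.21). Its intron 1 enhancer peak, chr18:54208040-54212559, listed in both states, stood at 0.023 ± 0.11 (mean count 368.4), and a peak beside it with 14.0 mean counts at 0.97 ± 0.54 was not called. MBD4, a glycosylase for thymine paired with guanine at methylated sites (chr3:129430947-129440179, minus strand), had 1 peak, chr3:129438654-129442308, at −0.024 ± 0.08 (mean count 1031.4). TDG, the glycosylase that removes the oxidized bases made by TET enzymes (chr12:103965822-103988874, plus strand), also had 1 peak, chr12:103963655-103968448, at 0.11 ± 0.08 (mean count 1045.5). The MBD4 peak is shared with the start of IFT122 and the TDG peak with that of UQCC6. The 95% intervals of these 3 promoters, at the widest −0.25 to 0.27, lie inside the 1.5-fold limits of 0.58 on the log2 scale.

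Compared per kb of peak, promoter levels of H3K27ac differed about 4-fold across the genes. The mean count per kb was highest at TET2 (313.1), the internal DNMT3A start (298.4) and MBD4 (282.2), followed by the 5′ DNMT3A start (225.2) and TDG (218.1). DNMT1 (154.6 and 153.2), MBD2 (134.6) and the first TET3 start (131.5) lay in the middle, and DNMT3B (104.6) and the second TET3 start (89.3) below. UHRF1 (77.8) and TET1 (76.9), the promoters with the largest falls, were the lowest of the 13. Against all promoter peaks these values run from the 22.8th percentile at TET1 to the 87.3rd at TET2. They are means over both states with no spread over libraries, so neighbours in this order cannot be told apart, and the falls themselves lower the mean of UHRF1 and TET1.

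The enhancer lists, which hold regions with both H3K27ac and H3K4me1 outside promoters, had 8 regions at these genes in each state, of 14886 in non-senescent and 13076 in senescent cells. In each list 5 of the 8 overlapped a region of the other, at DNMT3A, TET1 (3 regions) and MBD2. The share of all listed regions that do so is not given here, so these counts are not read as particular to the 10 genes. Listed in non-senescent cells alone were an intron 6 region of DNMT3A (chr2:25254866-25259227), a region over exon 2 of TET1 (chr10:68573418-68574520) and an intron 1 region of TET2 (chr4:105161713-105162484). The H3K27ac peaks over these 3 stood at 0.12, −0.37 and −0.21 and none was called. The 3 regions listed in senescent cells alone lie in the gained peaks of TET2 and TET3, and since the lists use H3K27ac this is not independent of the gains. Of the 10 lost H3K27ac peaks, 3 were promoter peaks, and the lists hold regions outside promoters. Of the other lost peaks, 2 overlapped a listed enhancer, both in both lists. The Rb list held 1 of its 2435 regions at the 10 genes, chr2:25251866-25252096. It lies 36 bp from an internal start site of DNMT3A and overlaps an annotated exon there. Its 231 bases hold 18 CpG and no E2F word, its GC content is 73.2%, and it sits in the broad H3K27ac peak that was not called.

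At the same genes, CTCF was called changed in introns of DNMT3A and DNMT3B. Of the 30 CTCF peaks, 24 had an adjusted p in the authors' table, and 2 of these were lost and none gained, 8.33%, against 7.27% of the 39485 peaks with an adjusted p (2.99% gained and 4.28% lost), a share near the background. Of the 12 promoter peaks, 10 had an adjusted p and 1 was lost, where the background of promoter peaks with one was 6.34% (0.630% gained and 5.71% lost). At an unadjusted p under 0.05 in the authors' DESeq2 test, 5 of the 30 were lower and 0 higher, and of all CTCF peaks 8.33% were lower and 7.63% higher. No call was possible for the other 6, the lowest of which had a mean count of 5.41. The median log2 fold change was −0.24 over the 30 and −0.012 over all CTCF peaks, and −0.28 over the 12 promoter peaks against −0.17 over all CTCF promoter peaks. Below 0 lay 22 of the 30, against 51.2% of all CTCF peaks, and 11 of the 12 promoter peaks, against 70.3% of all CTCF promoter peaks. CTCF fold changes fell with GC content, from a median of 0.22 in the GC-poorest decile of peaks to −0.31 in the GC-richest.

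The lost CTCF peaks lay at the de novo methyltransferases. In intron 6 of DNMT3A, chr2:25257043-25257489 fell by 1.13 ± 0.38 (2.19-fold, adjusted p = 0.067) at a mean count of 29.6. It lies inside the broad H3K27ac peak and inside the enhancer listed in non-senescent cells alone. A second CTCF peak in the same enhancer, chr2:25257804-25258349, stood at 0.22 ± 0.43. At DNMT3B, chr20:32778229-32779147 in intron 1 fell by 0.60 ± 0.22 (1.52-fold, adjusted p = 0.097) at a mean count of 114.6, and it lies 0.7 kb from the nearest of 2 internal start sites. After the GC trend was removed this peak stood at −0.45 and was no longer called. The strongest CTCF peak of the 30, chr20:32788378-32791649 over exons 7 and 8 of DNMT3B, had a mean count of 936.3 and a log2 fold change of −0.083 ± 0.10 (95% interval −0.29 to 0.12).

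The best match to the CTCF core consensus in each peak was looked up on both strands to compare the lost peaks with one that was not called. Over all CTCF peaks, 4427 held an exact match and 69.1% one with at most 2 mismatches, against 2 and 18 of the 30 (60.0%), and wide peaks offer more places to match. The core is in capitals below, with 15 bases on each side. The lost DNMT3B peak had an exact core at chr20:32778618-32778661 (minus strand), the lost DNMT3A peak a core with 3 mismatches at chr2:25257214-25257257 (plus strand), and the peak in intron 4 of DNMT3A an exact core at chr2:25277381-25277424 (plus strand).
DNMT3B lost: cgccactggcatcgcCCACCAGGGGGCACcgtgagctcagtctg
DNMT3A lost: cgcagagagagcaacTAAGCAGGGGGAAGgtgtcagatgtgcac
DNMT3A not called: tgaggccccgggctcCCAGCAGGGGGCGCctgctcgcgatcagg
The last peak had a log2 fold change of −0.31 ± 0.44 at a mean count of 28.6, and its interval of −1.16 to 0.55 holds the values of both lost peaks.

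No other CTCF peak of DNMT3A or DNMT3B was called, and none at the other genes. The DNMT3A peak over exon 23, chr2:25228163-25229473, stood at −0.53 ± 0.22 (mean count 132.0, adjusted p = 0.16), 1.45-fold and so under the fold threshold. At the canonical start of DNMT3B, chr20:32762206-32762799 stood at −0.39 ± 0.27 (mean count 63.3). DNMT3A had 2 strong upstream peaks, chr2:25376091-25377786 at −0.41 ± 0.12 (mean count 451.9, adjusted p = 0.025, 1.33-fold and so under the fold threshold) and chr2:25361004-25362801 at −0.18 ± 0.11 (mean count 447.0). The first of these overlaps the lost H3K27ac peak 35.3 kb upstream. The CTCF peaks at the strongest promoter site were near 0 at DNMT3A (−0.14 ± 0.16, mean count 403.1) and UHRF1 (−0.035 ± 0.23, mean count 118.9). That of TET2 stood at −0.13 ± 0.49 (mean count 19.3), and its interval of −1.09 to 0.82 holds 1.5-fold changes in both directions. The values of DNMT3A, UHRF1 and TET2 turned to 0.21, 0.062 and 0.26 once the GC trend was removed. At DNMT1, the peak beside the S1PR2 start stood at −0.43 ± 0.22 (mean count 88.7), and at MBD2 the strongest promoter peak at 0.37 ± 0.23 (mean count 108.4). TET3 (−0.54 ± 0.42, mean count 28.8) and TDG (−0.64 ± 0.35, mean count 34.8) had intervals from −1.36 to 0.27 and from −1.33 to 0.055, too wide to place a 1.5-fold loss on either side. TET1 had no CTCF promoter peak, and its 3 other CTCF peaks included chr10:68576070-68576422 in intron 2 at −1.27 ± 0.48, with a mean count of 17.5 and no adjusted p. MBD4 had no CTCF peak. Only 5 of the 30 CTCF peaks had a 95% interval inside the 1.5-fold limits.

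**Figure D4:**
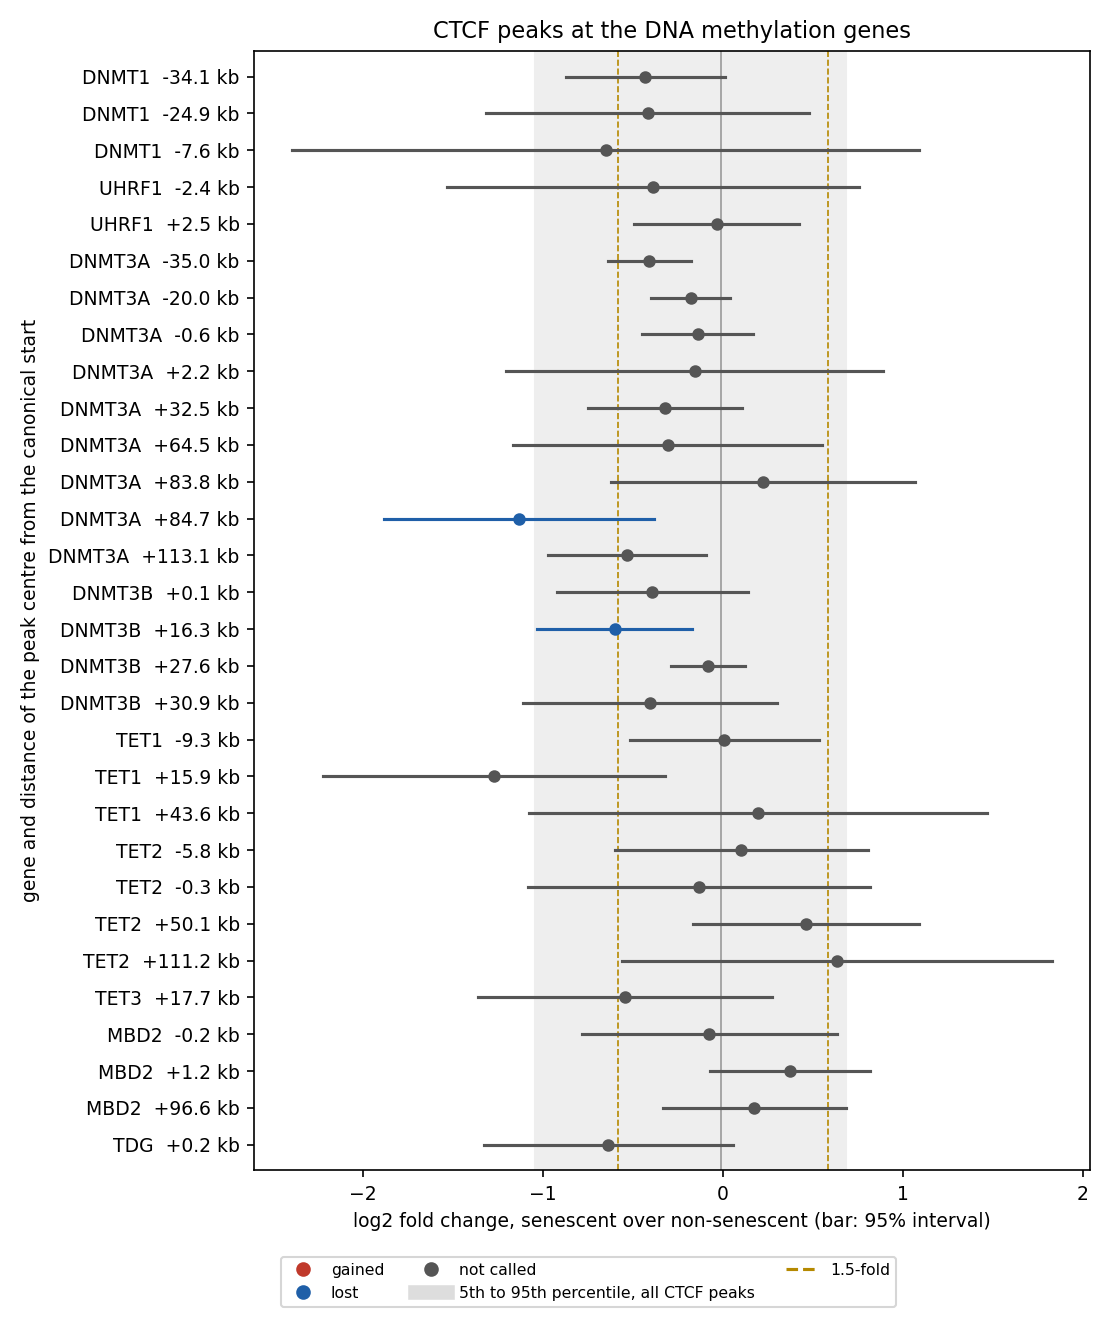
Log2 fold change of the 30 CTCF peaks, each named by its gene and the distance of its centre from the canonical start, with 95% intervals as bars, the 5th to 95th percentile of all CTCF peaks as a grey band, their median as a grey line and dashed lines at 1.5-fold. The 2 lost peaks are in blue, and 22 of the 30 points lie below 0.

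The 2 marks could be read side by side at 12 CTCF peaks that overlap 9 of the H3K27ac peaks. At the first gained TET2 enhancer, CTCF peak chr4:105196537-105197442 stood at 0.46 ± 0.32 beside the H3K27ac gain of 0.89. At the 35.3 kb peak of DNMT3A both marks lay below 0, CTCF at −0.41 and H3K27ac at −1.09. At the lost DNMT3A CTCF peak H3K27ac stood at 0.12, and at the 5′ DNMT3A promoter H3K27ac was 0.52 with CTCF at −0.14. Few of these peaks were called for either mark, the lost DNMT3A peak being the only CTCF call among them. That none of the 12 pairs had both marks called is thus not read as a result. The share over all overlapping peaks is not given here.

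Beyond the 10 genes, 52 genes of the same pathway were examined by their strongest H3K27ac promoter peak, 48 of which had one. Of these 1 was gained and 10 lost, against 12.1% of 13059 genes (3.15% gained and 8.94% lost). Their median log2 fold change was −0.0076 against 0.038 over all genes. The lists were chosen with earlier results of these data known, so the comparison with all genes is not support for a trait of the pathway. The 10 called genes described had adjusted p between 6.3e-37 and 0.00011. Of 10 partners of the methyltransferases and TET enzymes, 3 were lost: CDCA7 (−2.15 ± 0.20) and its relative CDCA7L (−1.22 ± 0.13), and HELLS (−0.68 ± 0.09), the nucleosome remodeller that CDCA7 activates for maintenance methylation. Of 11 genes of methyl donor supply 4 were lost, among them SHMT2 (−1.88 ± 0.14), the mitochondrial serine hydroxymethyltransferase, MTHFD1 (−0.76 ± 0.11), which carries folate one-carbon units, and GNMT (−1.03 ± 0.24), which uses up S-adenosylmethionine.

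Of 13 base excision repair genes 2 were lost and 1 gained. NEIL3, a glycosylase of dividing cells, stood at −1.11 ± 0.26 and PARP1, a sensor of strand breaks, at −0.60 ± 0.13, while GADD45A, a stress-induced gene tied to demethylation, rose by 0.65 ± 0.09. Of 7 other readers of methylated DNA, 1 was lost, UHRF2 (−0.60 ± 0.11, 1.52-fold), the relative of UHRF1. None of 7 enzymes that make or remove 2-oxoglutarate and 2-hydroxyglutarate, the cofactor and an inhibitor of TET enzymes, was called, with values of −0.19 to 0.33. UHRF2 and PARP1 lie just past the threshold of 1.5-fold. Counted by the change above 2-fold, 6 of the 48 were called, all lost, and the share of all genes at that threshold is not given here.

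**Figure D5:**
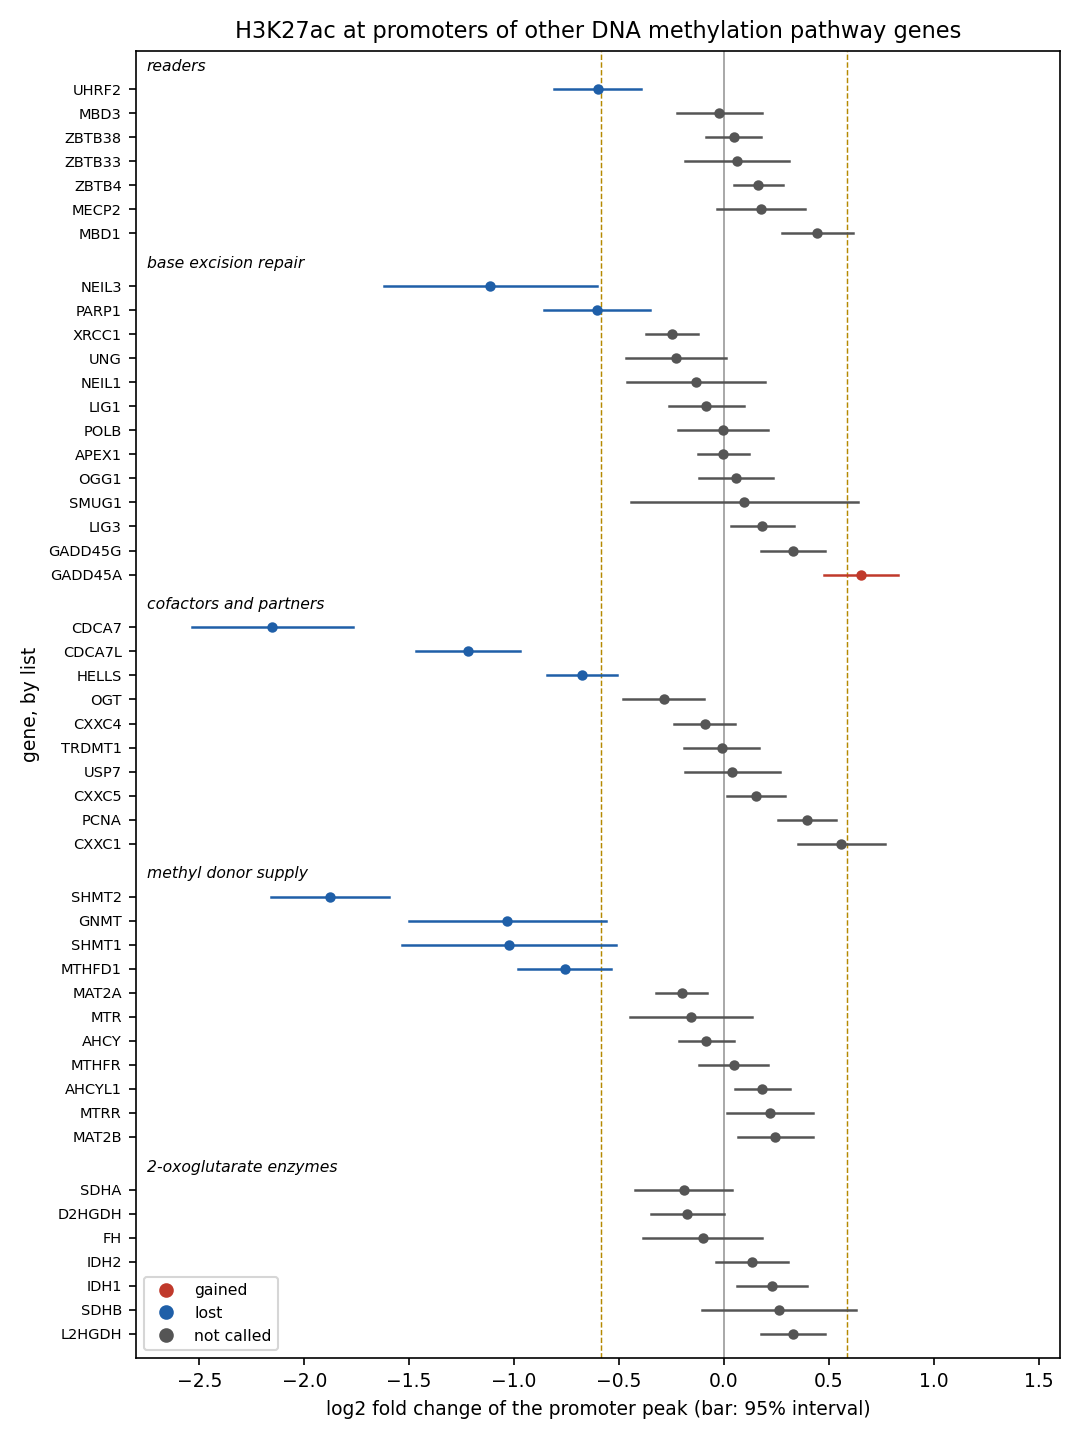
Log2 fold change of the strongest H3K27ac promoter peak of 48 other DNA methylation pathway genes, grouped by list and ordered by value, with 95% intervals as bars and dashed lines at 1.5-fold. The lowest points are CDCA7 and SHMT2, GADD45A is the 1 gained gene, and the enzymes of 2-oxoglutarate all lie between the dashed lines.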

How the data were processed

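ChIP-seq of H3K27ac, CTCF, H3K4me1 and Rb had been done by the authors on non-senescent and senescent EndoC-βH3 cells, with an input library for each immunoprecipitate (40 libraries). According to the methods, the authors used Trim Galore for trimming and Bowtie2 for alignment (hg38), called peaks against input with HOMER (H3K27ac, H3K4me1) or MACS2 (CTCF, and Rb with non-senescent libraries as control), and compared raw counts in peaks with DESeq2. The methods say that the authors filtered CTCF peaks for the CTCF motif. At the paper's thresholds the deposited values gave 1690 lost and 1180 gained CTCF peaks, more than the paper counts among loci with the motif. The deposited CTCF peaks are thus not limited to that filtered set, and neither are the CTCF calls described here. Versions and the merging of replicate peaks are not given in the sources used here. GEO's labels do not state that libraries came from separate cultures, so p-values measure the spread between these libraries. The authors deposited, per peak, a mean normalized count (a signal over 6 libraries), the log2 fold change and its SE, and the Wald p-value with its Benjamini-Hochberg adjusted p. These columns are the authors' own comparison over all peaks and were used as deposited, since the tables have 0 columns of values per library. The planned edgeR refit needed counts and was not run. Adjusted p-values left blank in the CTCF table (11972 peaks) stayed uncalled. The other 3 deposited files hold positions only. Positions are printed counted from 1.

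From these values, peaks were assigned to genes (pandas 2.3.3), 95% intervals were taken as the log2 fold change ± 1.96 SE, and the alternatives were computed, a test against a 1.5-fold change and the removal of the GC trend first tested on simulated data. Overlap means at least 1 bp. Sequences are those of RefSeq (GRCh38.p14) or hg38. All 10 genes are named, each with its strongest promoter peak of each mark, every called peak and, where none was called, the peak of largest change with at least 50 mean counts. Uncalled peaks beyond these were added after their values were seen, to account for the members. Of other pathway genes, the 10 called ones with the smallest adjusted p are named. The members and the gene lists were chosen with earlier results of these data known.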

Additional observations from a re-analysis of the deposited data

How the results depend on the processing

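The deposited tables hold no values per library, so leaving out single libraries and a fit with another normalization were not run. No paired analysis was possible because the columns carry no replicate numbers. The 95% interval lay inside the 1.5-fold limits at 9 of the 37 H3K27ac peaks and 5 of the 30 CTCF peaks (24.3% and 16.7%, against 32.1% and 27.2% of all peaks), so an uncalled peak outside these is not shown to be unchanged.

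With a change above 2-fold, the called peaks numbered 8 for H3K27ac (1 gained, 7 lost) and 1 for CTCF, and 6 of the pathway promoters. With the adjusted p alone, 6 of the 13 H3K27ac promoter peaks (1 gained, 5 lost), 4 CTCF peaks, all lower, and 24 pathway promoters (11 higher, 13 lower) were called. Tested against a 1.5-fold change, 4 H3K27ac peaks, all lost, 0 CTCF peaks and 3 pathway promoters were called. For none of the alternative settings is the share of all peaks called given here, so these counts have no background beside them. With an adjusted p under 0.05 in place of 0.2, 0 CTCF peaks were called, where the authors' DESeq2 test gave 5 lower and 0 higher at an unadjusted p under 0.05. With a mean count of at least 50, 1 CTCF peak was called, that of DNMT3B, and without the GC trend 1 other, that of DNMT3A (−1.02, adjusted p = 0.16), so neither was called under both. Only recentring and the GC correction recompute the fold change. Over the 67 peaks, these gave 134 values, of which 121 kept direction and call. The GC correction ended the call at the DNMT3B CTCF peak (−0.45) and made the 5′ DNMT3A promoter gained for H3K27ac (0.86). It turned 9 values that were not called: the H3K27ac promoter of DNMT3B to 0.16, and CTCF peaks of DNMT3A to 0.21 and 0.075, of UHRF1 to 0.062, of DNMT3B to 0.0036, of TET1 to −0.012, of TET2 to 0.26 and −0.056 and of MBD2 to 0.092. Recentring on the peaks with the highest mean counts moved fold changes by 0.059 (H3K27ac) and 0.034 (CTCF) and turned 2 uncalled values, the MBD2 intron 1 H3K27ac peak to −0.036 and a TET1 CTCF peak to −0.027. The cause was not tested.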

Other observations

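The 100 kb limit fell between 2 CTCF peaks of MBD2. The one at 96.2 kb, inside it, stood at 0.17 ± 0.26 and the next, at 104.2 kb and not counted, at 0.13 ± 0.16, and neither was called. No H3K27ac peak lay near the limit, the farthest counted one being 79.7 kb from a start site of DNMT3A.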
